A study of Homo sapiens with 6 samples.

Results

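The major histocompatibility complex (MHC) is a gene-dense stretch of human chromosome 6, taken here as hg19 chromosome 6 from 28.477 to 33.449 Mb. Its members are all deposited H3K27ac peaks that overlap this interval on the main chromosome 6 sequence. They numbered 289 of 174843 deposited peaks in parental control, 341 of 180754 in parental 2 h and 341 of 181577 in parental 4 h. In the knockout they numbered 413 of 271785 in control, 366 of 221753 at 2 h and 792 of 410176 at 4 h. The study has 6 ChIP-seq libraries, 1 per group, from the human leukemia line CCRF-CEM, which grew from T lymphoblasts. Parental (wild-type) cells and cells with a knockout of the SLFN11 gene each received the solvent DMSO (control), or 100 nM camptothecin for 2 h or 4 h. Camptothecin traps topoisomerase 1 on DNA, and SLFN11 is a protein that sensitises cells to such drugs. The labels do not say whether the knockout cells are 1 clone. No difference between groups has a replicate check, and no test between groups was made.

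Acetylation of lysine 27 of histone H3 (H3K27ac) marks active promoters and enhancers. Class I genes of the MHC encode the cell-surface molecules that show peptides from inside the cell to cytotoxic T cells, and nearly every nucleated cell makes them. Class II genes encode molecules that show taken-up antigen to helper T cells. They are made mainly by B cells, dendritic cells and macrophages, and in human T cells mostly after activation. The class III block between them encodes no antigen-presenting molecules. It holds complement genes, the tumor necrosis factor family genes LTA, TNF and LTB, heat shock genes and many housekeeping genes. In the order of protein-coding genes in RefSeq's GRCh38.p14 table, 50 genes stand from ZFP57 to MICB. Another 61 stand from MCCD1 to BTNL2, and 34 from HLA-DRA to KIFC1. In that last span the order runs from the HLA-DR and HLA-DQ genes to HLA-DOB, then to TAP2, PSMB8, TAP1 and PSMB9, which serve peptide supply to class I. After these come HLA-DMB, HLA-DMA, BRD2, HLA-DOA and the HLA-DP genes. The peaks are placed on hg19, for which no annotation was used here, so no peak below is assigned to a gene, exon or intron. For the same reason no sequence is printed, and neither the T cell label nor the knockout of SLFN11 was checked.

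The lists differ in length and depth, so most values below rest on strong peaks, the top 30000 of a library by p over the autosomes and X. Rank 1 is the strongest. Values listed for the parental or the knockout libraries follow the order control, 2 h, 4 h. Fold is the authors' ratio of pileup over local background, and p is their peak p-value. The background pileup, a measure of relative depth, lay between 0.506 and 0.715 fragments per base in 5 libraries and at 0.168 in knockout 4 h, which is shallow. In that list 59.7% of the peaks share 1 pair of low fold and p.

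Strong peaks were denser in the MHC than over the genome. Parental control had 118 of the 30000 there, parental 2 h had 119 and parental 4 h had 122. Knockout control had 110, knockout 2 h had 119 and knockout 4 h had 107. As shares these are 0.393% (Wilson 95% interval 0.329 to 0.471), 0.397% (0.332 to 0.474), 0.407% (0.341 to 0.485), 0.367% (0.304 to 0.442), 0.397% (0.332 to 0.474) and 0.357% (0.295 to 0.431), in the same order. The intervals cover counting error only, and all 6 overlap. The density was 23.7 strong peaks per Mb in parental control and 22.1 in knockout control, against 9.51 and 9.58 on the whole of chromosome 6 and 9.88 over all chromosomes. The density relative to all chromosomes lay between 2.18 times in knockout 4 h and 2.48 times in parental 4 h. The flank of the same length before the region had more strong peaks than the MHC in every library, 151 in parental control, and the flank after it fewer, 102 in parental control.

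In the 5 deeper libraries few MHC peaks were among the top 1000. The top 1000 held 0, 0 and 1 in the parental libraries and 2, 0 and 5 in the knockout libraries, and the top 5000 held 18, 21 and 19, then 13, 12 and 28. As shares of the top 5000 these are 0.36%, 0.42% and 0.38% in the parental libraries, near their shares of strong peaks, 0.393%, 0.397% and 0.407%. Knockout control and knockout 2 h had 0.26% and 0.24%, under their 0.367% and 0.397% of strong peaks. The share of the top 5000 in knockout 4 h, 0.56%, was above its share of strong peaks, 0.357%. The best rank of any MHC peak was 1064 in parental control, 1082 in parental 2 h, 842 in parental 4 h, 729 in knockout control and 1419 in knockout 2 h. In knockout 4 h it was 417. The strong peaks of the MHC had a median rank of 10653 in parental control, where a whole list of 30000 has 15000.5. Their median width was 1486 bp, against 1101 bp for all strong peaks of that library. Their median fold was 3.86, 3.96 and 3.73 in the parental and 4.00, 3.83 and 3.56 in the knockout libraries. For all strong peaks it was 3.78, 3.90 and 3.76, then 3.85, 3.88 and 3.44, so the MHC was lower in parental 4 h and knockout 2 h and higher in the other 4.

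**Figure D1:**
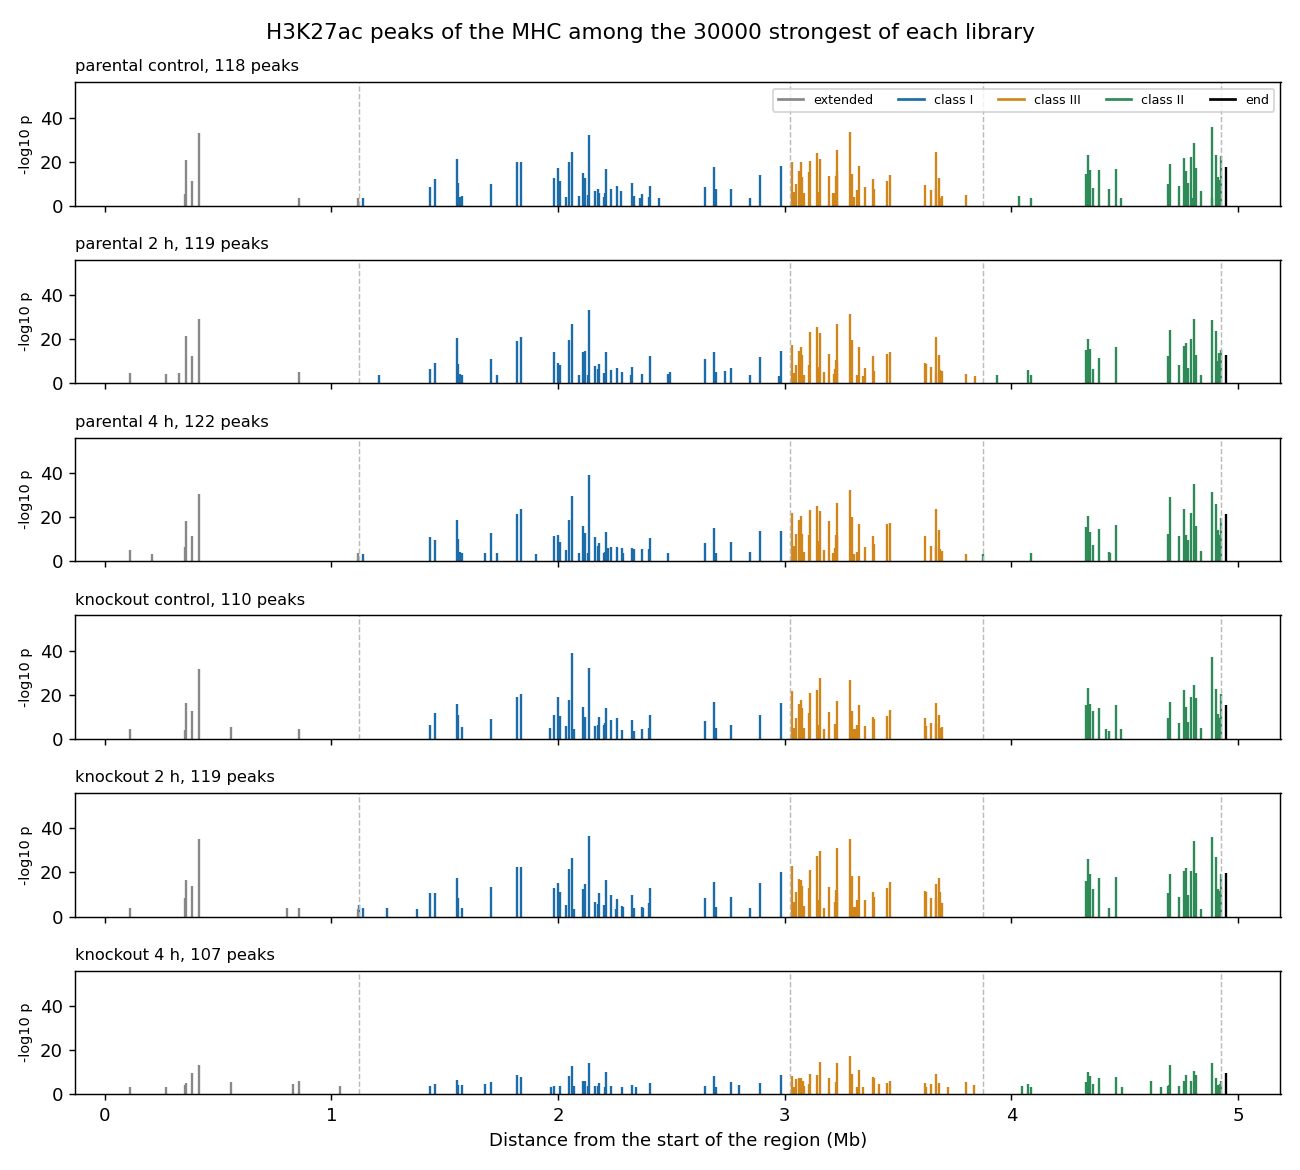
Each line is a peak of the MHC among the 30000 strongest of its library, at its distance in Mb from the start of the region, with the authors' −log10 p as height and colours for the blocks. The same clusters appear in all 6 libraries, with a bare stretch early in class II, and knockout 4 h has the smallest heights.

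Class III and the extended stretch stood apart in density in all 6 libraries. Class III (31.5 to 32.35 Mb) was the densest in every library, with 37, 40 and 39 strong peaks in the parental libraries and 36, 39 and 33 in the knockout libraries. That is 43.5 strong peaks per Mb in parental control, 4.40 times the mean of all chromosomes. Class I (29.6 to 31.5 Mb) had 45, 45 and 48 in the parental libraries and 39, 47 and 36 in the knockout libraries, or 23.7 per Mb in parental control. Class II (32.35 to 33.4 Mb) had 29, 26 and 27 in the parental libraries and 27, 24 and 27 in the knockout libraries, or 27.6 per Mb in parental control. The stretch before class I (28.477 to 29.6 Mb), called extended here, had only 6, 7 and 7 and then 7, 8 and 10. Its 5.34 per Mb in parental control was under the mean of all chromosomes. The 49000 bp after class II had 1 strong peak in each library.

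Class III peaks were dense but, in the 5 deeper libraries, of lower fold. The median fold of strong peaks in class III was 3.51, 3.55 and 3.36 in the parental libraries and 3.35, 3.30 and 3.57 in the knockout libraries. In class II it was 4.22, 4.23 and 4.09 in the parental libraries and 4.13, 4.31 and 3.54 in the knockout libraries. The class III and class II values do not overlap over the 5 libraries other than knockout 4 h. By median rank, too, class II stood ahead of class III in every library, though by little in some. The median rank of strong peaks was 9035 in class III and 8731 in class II in parental control. It was 11543 and 8195 in knockout control and 10895 and 7068 in knockout 2 h. Class I had 12475, 11638 and 13600 in these libraries. All deposited peaks covered 11.4% of class III, 6.42% of class I, 5.16% of class II and 1.55% of the extended stretch in parental control, against 4.07% over all chromosomes.

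**Figure D2:**
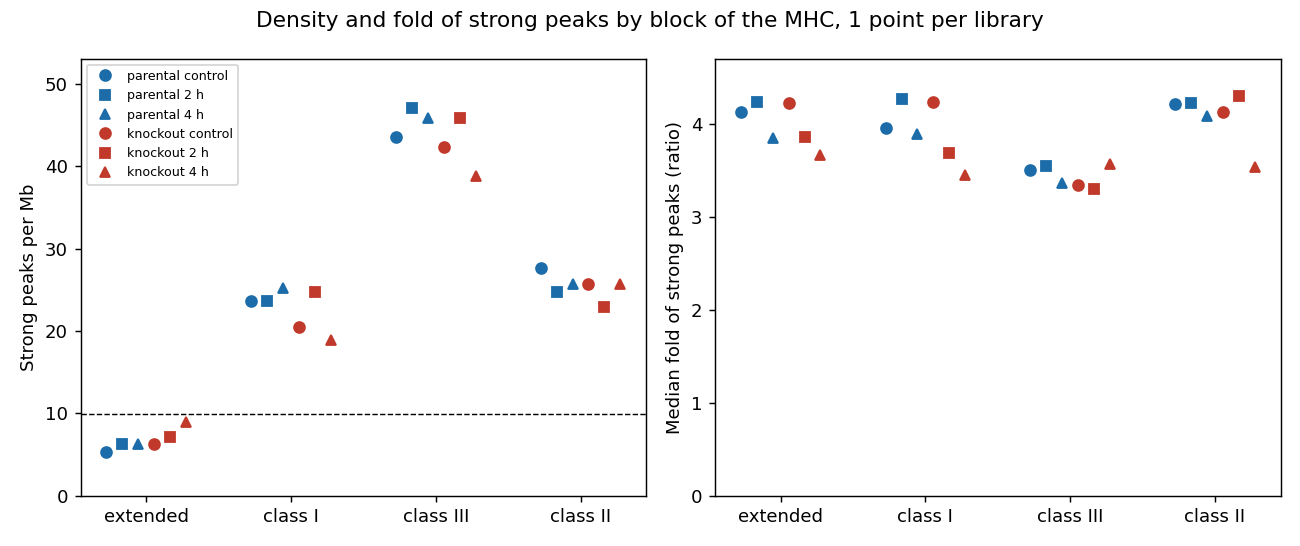
The left panel gives strong peaks per Mb and the right panel their median fold in 4 blocks of the MHC, 1 point per library, with circles for control, squares for 2 h and triangles for 4 h, blue for parental and red for knockout. The dashed line is the mean of all chromosomes, 9.88 per Mb, and class III is highest in density in all libraries and lowest in fold in the 5 deeper ones.

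To follow single sites, regions of fixed bounds were built: the top 15000 peaks of each library were pooled, leaving out knockout 4 h, and overlapping ones joined. This gave 18835 regions, of which 91 lay in the MHC: 4 extended, 32 in class I, 29 in class III, 25 in class II and 1 after it. Each was ranked in each library among all 18835 by its smallest p. The median of the mean rank over the 5 libraries was 8921 in the MHC and 9603 over all regions. By block it was 7422 in class II, 8608 in class III and 10162 in class I. None of the 91 had a mean rank within the first 1000, where 909 of all regions stood.

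In class I the strongest region was chr6:30614676-30615834. It ranked 1559, 1082 and 842 in the parental and 1659, 1419 and 972 in the knockout libraries, with folds of 6.70, 6.99, 7.10, 7.03, 6.90 and 6.20. It kept within 817 places over the 5 deeper libraries. The next, chr6:30538675-30539800, was uneven. Its rank was 3444, 2309 and 2390 in the parental libraries, 729 in knockout control, 3614 in knockout 2 h and 1341 in knockout 4 h. Its fold in knockout control, 10.3, was the highest of any MHC peak in that library, and the other libraries had 7.47, 7.55, 8.24, 7.62 and 7.35. The region with the highest fold in 4 of the 6 libraries was chr6:30312722-30313559, with 8.28, 8.28 and 8.64 in the parental libraries and 8.39, 9.04 and 5.27 in the knockout libraries. The widest deposited peak of the MHC in 5 libraries also lay in class I, from 30649987 to 30654744 in parental control. It was 4758 bp long with a low fold of 2.05.

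In class III the strongest region was chr6:31762506-31764129, at ranks 1349, 1356 and 1841 in the parental libraries and 2924, 1629 and 417 in the knockout libraries, with folds of 5.17, 5.34, 5.07, 4.94, 5.29 and 5.50. The region chr6:31702475-31708740 reached ranks of 3133, 2304 and 3248, then 6453, 2506 and 888, with folds of only 3.05, 3.44, 3.19, 2.61, 3.27 and 3.57. In knockout control alone its peak was the widest of the MHC, 6083 bp. The third, chr6:31619730-31621305, ranked between 2611 and 4390 in all 6 libraries. Class III also held the tightest cluster: 9 regions lay within 100 kb, from 31509215 to 31589150. The median distance between neighbouring regions was 10838 bp in class III, 11233 bp in class II and 23284 bp in class I.

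Class II was split. Its first 455 kb held 1 of its 25 regions, and the remaining 595 kb held 23, with 1 more across the border at 33.4 Mb. In the first part, deposited peaks covered 5581, 6159 and 5482 bp in the parental and 6486, 6169 and 16840 bp in the knockout libraries. In the second part they covered 48575, 51836 and 49195 bp and 57723, 59374 and 71982 bp. Strong peaks in the first part numbered 2, 3 and 2 in the parental libraries and 0, 0 and 3 in the knockout libraries, against 27, 23 and 25 and 27, 24 and 24 in the second. The border was put where the longest bare stretch of class II ended, so it was chosen from these values. No library had a strong peak from 32564485 to 32805412, a stretch of 240928 bp. The strongest region of class II was chr6:33359039-33360136, with ranks of 1064, 1813 and 2055 and then 923, 1482 and 965, and folds from 6.54 to 7.09. The region chr6:33280902-33282193 ranked 2273, 1784 and 1422, then 3636, 1805 and 2430. The third, chr6:33377622-33379320, ranked between 3174 and 5772.

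Of the 4 extended regions, chr6:28890753-28892240 was the strongest, at ranks 1416, 1796 and 2260 in the parental libraries and 1725, 1617 and 1154 in the knockout libraries, with folds from 5.47 to 6.27. The longest distance between 2 neighbouring regions of the MHC followed it, from 28892241 to 29909872. The second, chr6:28834078-28834895, ranked between 3904 and 7639 in the 5 deeper libraries and at 10204 in knockout 4 h, with folds of 6.91, 8.27 and 6.68 in the parental and 6.57, 6.44 and 3.76 in the knockout libraries.

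The strong peaks of the MHC were found again in other libraries more often than those of the genome. In the 20 directed pairs without knockout 4 h, between 83.2% and 95.5% of them overlapped a strong peak of the other library by at least 1 bp, against 71.4% to 78.0% of all strong peaks. With knockout 4 h the values were 73.0% to 84.1% and 57.6% to 62.4%. Since MHC peaks stand higher in the lists, with median ranks of 9667 to 11349, the higher agreement is given beside their strength, and its part was not tested. Of the 91 fixed regions, 87 (95.6%) held a strong peak in all 5 deeper libraries, against 88.3% of all regions. Strong peaks of the 5 deeper libraries covered 234750 bp of the MHC together, and 134596 bp (57.3%) were covered in all 5. By block, 69.2% of this length was common to the 5 in class II, 64.0% in class III and 47.7% in class I.

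After camptothecin in parental cells, few MHC regions moved by more than 3000 places, and these moved in both directions. At 2 h, 5 of 91 regions were stronger than in control by more than 3000 places, where 8.79% of all regions were, and 6 were weaker, where 8.1% of all were. The MHC shares, 5.49% and 6.59%, were near or under the background. At 4 h, 6 regions were stronger (7.13% of all regions) and 3 weaker (7.45%). Between 2 h and 4 h, 5 were stronger at 4 h (6.18%) and 2 weaker (6.9%). Both contrasts with control share the 1 control library. The median log2 ratio of fold to control, taken per region, was 0.03 at 2 h and 0.01 at 4 h in the MHC. Over all regions it was 0.04 and 0.02. The median fold itself was 4.40, 4.32 and 4.17 in the MHC and 4.63, 4.72 and 4.63 over all regions. With no size limit, 46 MHC regions ranked higher than in control and 45 lower at 2 h, and 48 and 43 at 4 h. The fold was higher in 58 and lower in 31 at 2 h, where 11186 and 7503 of all regions were. At 4 h it was higher in 47 and lower in 43, against 10602 and 8092.

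Among the largest moves in parental cells some rested on regions that few libraries had brought into the set. A region enters through a peak among the top 15000 of at least 1 library, so a region that enters through few libraries is high in those by construction. Of the 91 MHC regions 7 entered through 1 library (7.69%), as did 15.2% of all regions, and 69 through all 5. At 2 h, chr6:30658024-30659021 in class I went from rank 15662 to 11059, and stood at 11769 at 4 h. The knockout libraries had it at 11479, 11229 and 9779, so parental control stood apart, the only one of the 5 deeper libraries through which the region had not entered. The region chr6:32547578-32548008, the only one in the first part of class II, ranked 14505 in parental 2 h and 18798 and 18477 in parental control and 4 h. Knockout control and 2 h had it at 18764 and 18469, and knockout 4 h at 10717. It entered through parental 2 h alone and has no deposited peak in parental control, so its high rank at 2 h was built in. In the other direction, chr6:32908514-32909460 in class II ranked 13353, 18792 and 17010 in the parental libraries and 18122, 17703 and 15774 in the knockout libraries, with no deposited peak in parental 2 h. It entered through parental control alone, so its higher rank there was built in. Better ranked regions moved as well. The class III region chr6:31582884-31584206 ranked 7300, 11506 and 9155 in the parental and 9722, 9713 and 11226 in the knockout libraries. The class II region chr6:33244641-33245801 ranked 7147, 5268 and 9076 in the parental and 7852, 5223 and 3801 in the knockout libraries. Both entered through all 5 libraries. At 4 h, chr6:30639119-30641367 in class I moved from 14387 through 11881 to 9688, with 15941, 15730 and 12632 in the knockout libraries. It had entered through the 3 parental libraries alone, so its higher ranks there than in knockout control and 2 h were built in. Its fold was 4.28, 4.52 and 5.59 in the parental libraries and 4.08, 3.98 and 3.34 in the knockout libraries. The region chr6:31172147-31172772 went the opposite way, from 13028 through 15803 to 17637, with 16847, 17326 and 14125 in the knockout libraries, but it had entered through parental control alone.

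In knockout cells at 2 h, 4 regions were stronger than in knockout control by more than 3000 places (4.5% of all regions) and 0 were weaker (4.68%). The 4 include chr6:29909873-29911087 in class I, from 15544 to 11436, chr6:28831576-28832228 in the extended stretch, from 17635 to 13639, and the wide class III region chr6:31702475-31708740, from 6453 to 2506. In the first of these, the parental libraries ranked 12269, 13535 and 9618, so knockout control was the weakest of the 6, and the only one of the 5 deeper libraries through which the region had not entered. The extended region had entered through parental 4 h and knockout 2 h only. Without regard to size, 57 of the 91 regions ranked higher at 2 h than in knockout control and 34 lower. That is 62.6% higher, against 50.7% over all regions and 58.1% in the flank after the MHC. More MHC regions had entered through knockout 2 h and not knockout control than the other way round. Part of this direction is therefore built in. The median shift was 372 places, but 49 places with regions ranked by fold, and the fold itself was higher in 50 regions and lower in 41.

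**Figure D3:**
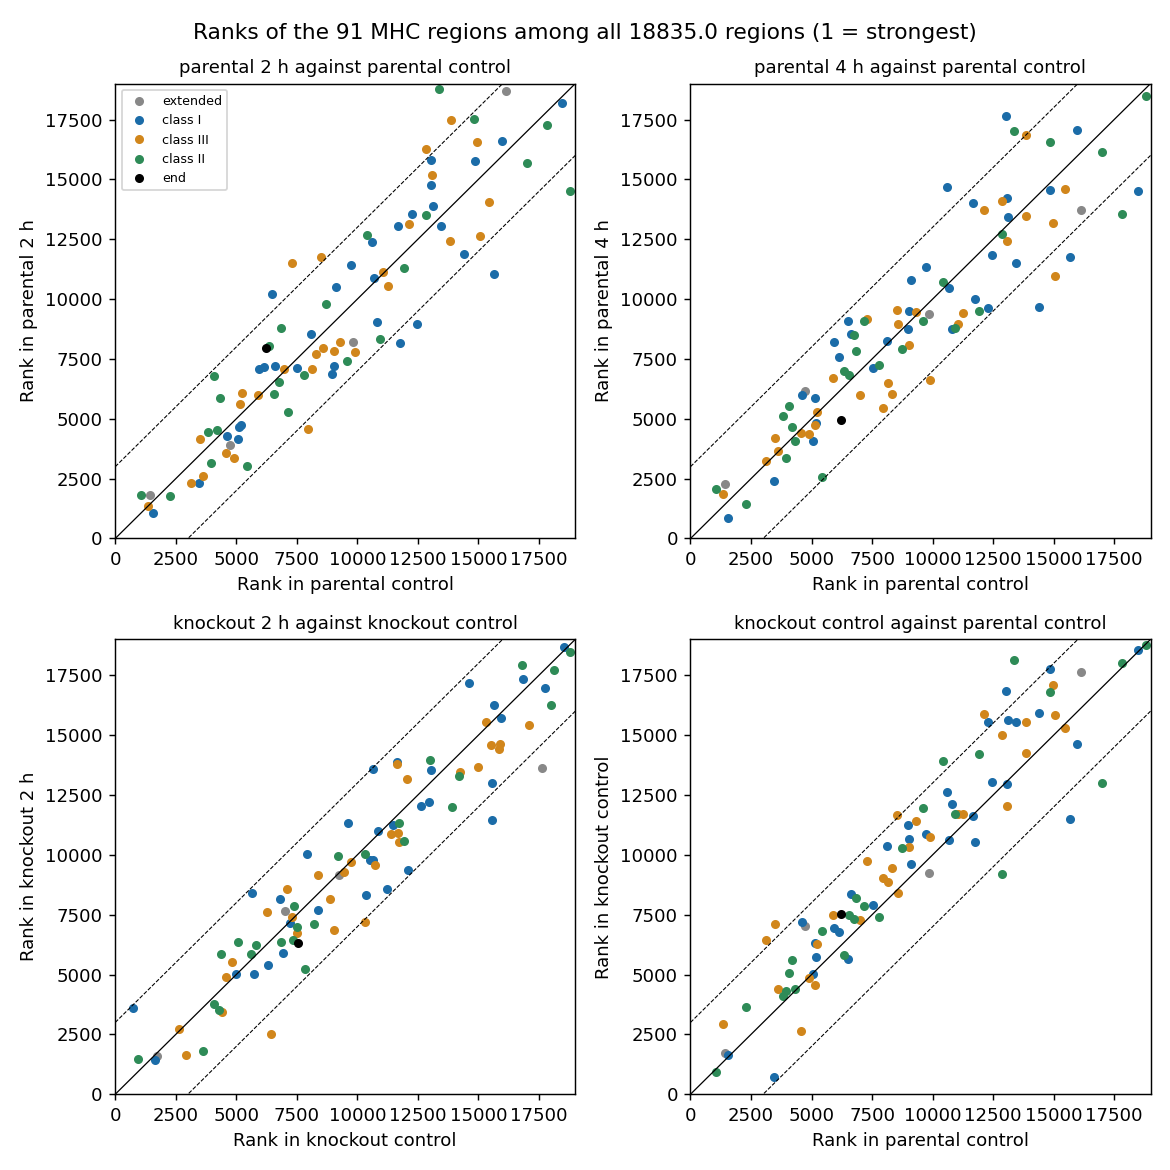
Each point is 1 of the 91 MHC regions, with its rank among 18835 regions in 2 libraries (1 is the strongest), coloured by block. The dashed lines lie 3000 places from the diagonal, and in the panel of the untreated libraries 69 points lie above the diagonal, that is, weaker in the knockout.

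The untreated knockout ranked the MHC lower than the untreated parental cells did. Of the 91 regions, 69 (75.8%) were weaker in knockout control, against 51.0% of all regions, and 22 were stronger. The median shift was −932 places, and −24 over all regions. The lower rank was seen in each class, with 23 of 32 regions in class I, 23 of 29 in class III and 19 of 25 in class II. The median shifts were −831, −1058 and −786 places in that order. Outside the region the shift was small: the median was −235 places over the 100 regions of the flank before it, 71 over the 62 of the flank after it, and 15 over the 914 of chromosome 6 outside the MHC. Part of the direction is built in for regions that entered through only one of the 2 control libraries. For example, chr6:31172147-31172772 entered through parental control and not knockout control, and chr6:30658024-30659021 the other way round. More MHC regions were of the first kind. All regions were built by the same rule, and this limit holds for every comparison of the genotypes below. By the size rule, 3 regions were stronger in knockout control (7.63% of all regions) and 8 weaker (7.35%).

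The size of this shift depended on the measure. With regions ranked by fold in place of p, the median shift was −348 places. The median log2 ratio of fold, taken per region, was −0.02, with 50 regions lower and 40 higher. The median fold itself was 4.40 in parental control and 4.15 in knockout control, and 4.63 and 4.67 over all regions. At 2 h, 57 of 91 regions were weaker in the knockout than in parental cells, with a median shift of −479 places, or −46 places with fold. That is 62.6% weaker, against 51.0% of all regions, whose median shift was −31 places, and 45.1% on chromosome 6 outside the MHC, with 151 places. Class I gave 24 of 32, class III 19 of 29 and class II 12 of 25. By size, 2 regions were stronger in knockout 2 h (10% of all regions) and 8 weaker (10.1%). Knockout control was the weakest of the 5 deeper libraries in 38 of the 91 regions (41.8%), and in 20.2% of all regions. In class III it was the weakest in 16 of 29. Neighbouring regions share 1 library and 1 genome sequence, so they are not independent, and knockout and parental cells have 1 untreated library each. The deposited peaks of knockout control were more numerous in the MHC than in any parental library, but its whole list was longer. Over the autosomes and X the MHC held 0.154% of its peaks, against 0.168%, 0.192% and 0.191% in the parental libraries. The background pileup was 0.699 in knockout control and 0.603 in parental control. Whether any of these bears on the shift was not tested.

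**Figure D4:**
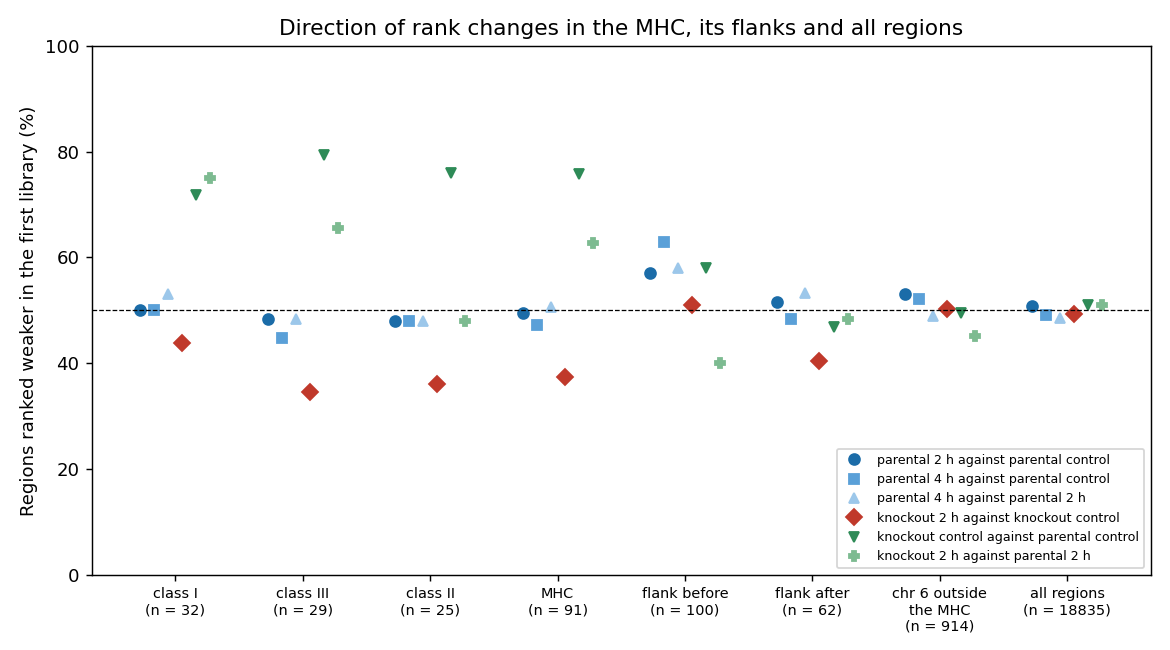
Points give the percentage of regions ranked weaker in the first library of each of 6 comparisons, for 3 classes of the MHC, the whole MHC, 2 flanks of the same length, the rest of chromosome 6 and all regions, with a dashed line at equal shares. For knockout control against parental control the MHC stands at 75.8% and all regions at 51.0%, and for knockout 2 h against its control the MHC stands at 37.4%.

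No MHC region separated the genotypes clearly. A region counted as separated when all 3 parental libraries ranked it above both knockout control and knockout 2 h by more than 3000 places, or below both. In the MHC, 0 of 91 were stronger in the knockout (1.64% of all regions) and 0 stronger in parental cells (0.669%). A count of 0 of 91 allows a share of up to 3.30%, so at this number a share like that of all regions was not distinguishable. The nearest was chr6:32143340-32144089 in class III, with ranks of 3503, 4149 and 4195 in the parental libraries and 7101 and 8586 in knockout control and 2 h, a gap of 2906 places. Its folds were 6.31, 6.36 and 6.06 against 5.36 and 4.81. Knockout 4 h ranked it at 3720, among the parental values. Towards the knockout, the nearest was chr6:32834902-32835445 in class II, at 12847, 13498 and 12719 against 9200 and 9965, with folds of 5.37, 4.84 and 5.23 against 7.46 and 7.59. Knockout 4 h had it at 10946 with a fold of 3.40, so its rank lay with the knockout and its fold did not.

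With no minimum gap, the ranks of the genotypes did not overlap in 24 MHC regions stronger in parental cells (16% of all regions) and in 5 stronger in the knockout (15.7%). That is 26.4% and 5.49% of the 91. Treated parental libraries stood above the other 3 deeper libraries in 22 regions (16% of all regions) and below them in 9 (15.4%). With a gap above 3000 places there were 0 of both (0.377% and 0.478% of all regions). Among the 22, chr6:33175512-33176744 in class II ranked 3044 and 2572 at 2 h and 4 h, and 5447, 6837 and 6372 in parental control, knockout control and knockout 2 h. Knockout 4 h ranked it still higher, at 1203. These counts share their libraries with the shift of knockout control, and are no separate evidence for it.

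Among the 91 regions, more ranked higher in knockout 4 h than lower, while the fold itself was lower in most. Against knockout control, 24 of the 91 were stronger by more than 3000 places (15.2% of all regions) and 4 weaker (16.1%). In class III, 26 of 29 regions ranked higher than in knockout control, where 45.15% of all regions did, and 11 by more than 3000 places. Against parental 4 h, 16 were stronger (16.3%) and 12 weaker (17.9%). This balance depended on the regions used. With 151 MHC regions built from the top 30000 peaks, which adds weaker ones, 45 were stronger and 45 weaker than in knockout control, and 33 stronger and 60 weaker than in parental 4 h. With the 91 regions ranked by fold in place of p, 37 were stronger and 9 weaker than in knockout control, and 33 stronger and 13 weaker than in parental 4 h. Shares over all regions were not counted for these other settings, so their counts have no background. The fold itself was higher in 32 and lower in 59 of the 91 than in knockout control, against 4417 and 14161 of all regions. Compared with parental 4 h it was higher in 29 and lower in 62, against 4230 and 14298. The class III region chr6:31869160-31870330 stood at rank 5460 in knockout 4 h, and between 12038 and 15170 in the 5 other libraries. The class I region chr6:30477305-30477861 stood at 15787, and between 5662 and 10233 in the others. The background pileup of knockout 4 h was 0.168 and that of its control 0.699, and treatment and depth cannot be told apart here.

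In windows of 10 kb, MHC marks differed between libraries less often than marks over the genome did. Of 498 windows, 82 held a strong peak in all 6 libraries, 342 in none and 32 in only 1. At least 1 library marked 38 of 85 windows in class III (44.7%), 67 of 190 in class I (35.3%), 34 of 105 in class II (32.4%) and 15 of 113 in the extended stretch (13.3%). Of windows marked in parental control or 2 h, 31 of 131 were marked in only one of them, 23.7%, against 41.4% over the genome. At 4 h these were 17 of 125, 13.6% against 38.6%, and between 2 h and 4 h 28 of 132, 21.2% against 40.7%. In the knockout at 2 h they were 13 of 116, 11.2% against 33.8%. Between the untreated genotypes they were 21 of 121, 17.4% against 37.1%, and between the genotypes at 2 h 35 of 132, 26.5% against 41.3%. With knockout 4 h they were 39 of 126 against its control, 31.0% against 53.5%, and 51 of 138 against parental 4 h, 37.0% against 53.6%. These lower shares stand beside the higher ranks and the higher density of strong peaks in the MHC, and the part of either was not tested.

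The hg19 sequence set of the peak lists holds 7 further copies of much of the MHC, the alternate haplotype sequences, and these carry peaks as well. Peaks at least as strong as the 30000th of their library numbered 664, 651 and 676 on the 7 copies in the parental and 610, 647 and 584 in the knockout libraries. A single copy such as cox_hap2 held 115, 116 and 117 in the parental libraries and 106, 114 and 101 in the knockout libraries, close to the main sequence. Knockout control was the lowest of the 5 deeper libraries on these copies as well. The copies repeat much of the same locus in the same libraries, so they are no separate evidence. The median fold of all their peaks was 2.41 in parental control, against 2.38 on the main sequence. Reads that match several copies could be placed on any of them, and how the authors placed them is not given in the sources used here. The effect of this on the ranks of MHC regions was not tested.

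**Figure D5:**
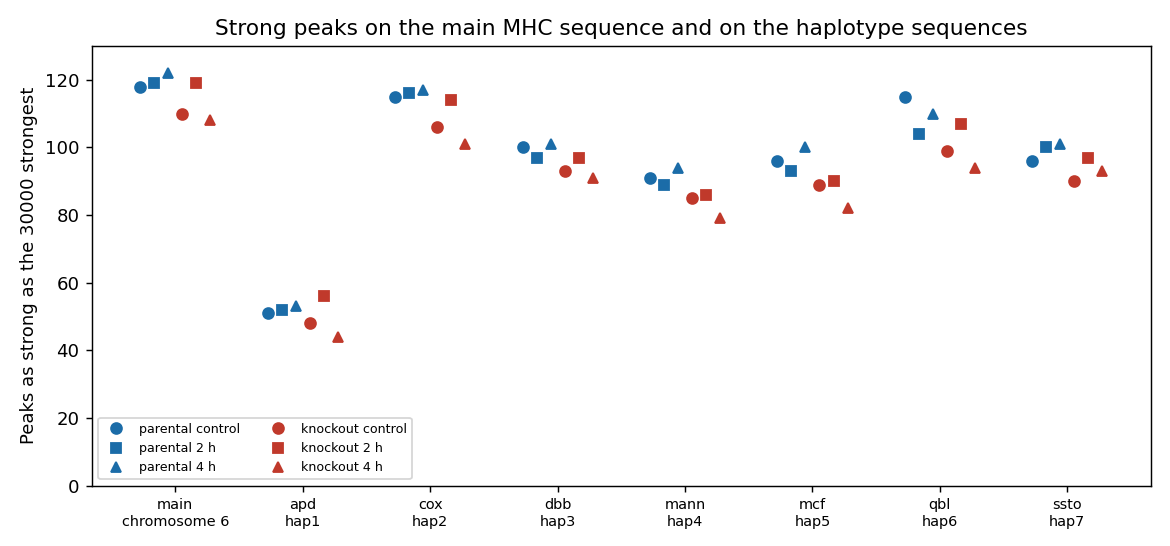
Points give, for each library, the number of peaks at least as strong as its 30000th on the main sequence of the MHC and on each of the 7 alternate haplotype sequences. In parental control 6 of the 7 copies carry 91 to 115 and the apd_hap1 sequence 51, where the main sequence has 118 (in knockout 4 h it has 108 here, with a tied peak).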

How the data were processed

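The deposited broad peak lists, 1 per library, are on hg19. The submitters' processing notes name MACS2 2.1.2, BWA 0.7.17 and Picard 2.9.2, and also SAMtools 1.8, Trimmomatic 0.39 and Trim Galore 0.6.2. Settings, and whether an input served as control, are not given there. The fold is the authors' ratio of pileup over local background, and the −log10 p and −log10 q are the authors' deposited values. The deposited score was not used. Reads were not analysed here.

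Peaks were ranked by −log10 p within a library (Python 3.11.15, pandas 2.3.3). A peak belongs to the block that holds its midpoint. Windows of 10 kb were marked from 1 bp of strong peak. Regions were merged from the 15000 strongest peaks of 5 libraries. Regions with no deposited peak share the last rank. Densities use the span up to the last peak of each chromosome. Background pileup was solved from the commonest fold and p of a list.

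Named regions are the 3 of best mean rank per block, examples among the 3 largest rank changes in each direction per comparison, and those nearest to separating libraries. Any other named region was chosen after its values were seen. The members, blocks and rules were chosen with earlier results of these data known. Separation was tested on simulated data: of 200 changed regions, 13.5% were recovered at a 1.5-fold change of −log10 p (16589 regions), 80.5% at 2-fold (16606) and 91.5% at 4-fold (16568). All simulated libraries were made from parental control with random noise of a set size, not taken from the data. Changes were increases only, in the group of 2 of a comparison of 3 against 2. These shares therefore do not give the power of the counts in the MHC. Coordinates are 1-based.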

Additional observations from a re-analysis of the deposited data

Results flagged for a closer look

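Peaks on the alternate haplotype sequences lie outside the comparisons above. Those at least as strong as the 30000th peak of their library numbered 664, 651 and 676 in the parental libraries (control, 2 h, 4 h) and 610, 647 and 584 in the knockout libraries.

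Some totals moved in opposite directions in the 2 genotypes after camptothecin. These differences were not tested, since each group has 1 library. The number of strong peaks in the MHC at 4 h minus control was 4 in parental cells and −3 in the knockout. The length covered by strong peaks at 2 h minus control was −14808 bp in parental cells and 16600 bp in the knockout. At 4 h it was 435 bp in parental cells and −28096 bp in the knockout, whose 4 h library is the shallow one. The median width of all strong peaks of a library differed as well. It was 1101, 938 and 1021 bp in the parental and 1103, 1143 and 710 bp in the knockout libraries. The part of this width in the covered lengths was not tested.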

How the results depend on the processing

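No paired analysis was possible because each group has 1 library. The values below follow one order of comparisons: parental 2 h against control, parental 4 h against control, parental 4 h against 2 h, knockout 2 h against control, knockout control against parental control, knockout 2 h against parental 2 h, knockout 4 h against control and knockout 4 h against parental 4 h. The median share of strong peaks in the MHC, 0.395%, became 0.547% with 15000 peaks, 0.555% from a −log10 q of 5 upwards and 0.180% with all peaks. Windows marked in only one library numbered 10, 6, 4, 6, 14, 6, 23 and 31 with 15000 peaks. From a −log10 q of 5 they were 17, 9, 10, 6, 11, 14, 43 and 45, and with all peaks 96, 96, 104, 102, 108, 100, 153 and 189. With 500 bp covered they were 8 for knockout 2 h against control and 25 and 33 for the last 2. Regions past 3000 places numbered 68, 58, 46, 52, 62, 68, 90 and 93 when built from 30000 peaks, which gave 151 MHC regions among 51668, so that 3000 places are a smaller part of the list. With strength from fold, knockout control against parental control had 7 and the last 2 comparisons 46 each. Past 1500 places they were 37, 35, 32, 22, 36, 38, 54 and 54, and past 5000 places 1, 0, 0, 0, 0, 1, 14 and 6. Shares over all windows and all regions were not counted under these settings. Regions separated by genotype became 4 with a gap above 1500. Of these, 2 were stronger in the knockout (4.66% of all regions) and 2 in parental cells (2.71%). With fold, 1 was stronger in the knockout (1.98%) and 0 in parental cells (0.754%). With all 3 knockout libraries the counts stayed 0 and 0 (0.706% and 0.451%). Clipping cover at the block borders moved no block beyond the spread of the libraries. The median shift of knockout control against parental control, −932 places, was −1058 with regions from 30000 peaks and −348 with fold, both alternatives chosen after seeing the data. Other median shifts changed sign under them: parental 2 h against control, 238 places gained, was −57 with fold, parental 4 h against 2 h, −46, was 6 with fold, and knockout 4 h against parental 4 h, 374, was −1163 with regions from 30000 peaks. The causes were not tested.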

Other observations

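Long parts of the MHC held no strong peak in any of the 6 libraries. Besides the stretch in class II, these were 247294 bp from 29034430 to 29281723 and 180464 bp from 29332655 to 29513118 in the extended block, 156466 bp from 30968765 to 31125230 in class I, and 154506 bp from 31940771 to 32095276 in class III. The first was nearly empty even of weak peaks, with 0, 1 and 0 deposited peaks in the parental and 2, 1 and 14 in the knockout libraries. The class III stretch was not: it held 7, 22 and 15 weak peaks in the parental libraries and 16, 18 and 49 in the knockout libraries. With the weak peaks included, the longest stretch bare in all 6 libraries was 56386 bp, from 29071196 to 29127581.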
